A study of Homo sapiens with 12 samples.

Results

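The circadian clock repressors and their output factor DBP were followed at the RNA level in leukaemia cells deprived of arginine. The set held 10 genes, chosen by name from 60664 genes in the table of counts: the DEC factors BHLHE40 and BHLHE41, the period genes PER1, PER2 and PER3, the cryptochromes CRY1 and CRY2, the REV-ERB receptors NR1D1 and NR1D2, and DBP. BHLHE40 entered because it stood among the genes that rose most in treated TOM-1 cells in earlier results of these data, so its values in TOM-1 are given as a description with no test. The other 9 genes were added as members of the same clock families. Each of the 10 symbols matched 1 Ensembl identifier, and all 10 genes passed the filter on low counts, as did 17349 genes in all.

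RNA was measured in TOM-1 and RS4;11, human B-cell acute lymphoblastic leukaemia lines whose genotype the labels give as WT. TOM-1 carries the BCR::ABL1 fusion of the Philadelphia chromosome, and RS4;11 carries a rearrangement of KMT2A. Cells of both lines grew in RPMI with 20% fetal bovine serum and antibiotics, and were left in control culture or given ADI-PEG20 at 1000 ng/ml for 24 h, with 3 libraries in each of the 4 groups. ADI-PEG20 is a pegylated arginine deiminase, which turns the arginine of the medium into citrulline. Each line stands for 1 leukaemia, so a difference between the lines cannot be told apart from a difference between these cultures. The labels do not say whether the 3 libraries of a group came from separate cultures, and the p-values then measure only the spread between these libraries. The time of day of harvest and any synchronisation of the cells are not given in the sources used here, and each group was sampled at 1 time only, so the values are levels and not rhythms.

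In the mammalian clock, the bHLH-PAS factors CLOCK and BMAL1 bind E-box sequences and switch on genes that include their own repressors. PER and CRY proteins form the complex that blocks CLOCK and BMAL1, the DEC factors compete for E-boxes, and the REV-ERB receptors repress BMAL1 through a separate DNA element. DBP is an output activator of this loop that binds D-box elements. BHLHE40 is also known outside the clock as a factor induced by stress, hypoxia and immune stimulation, and PER1 as an early-response gene.

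Total counts ran from 18958144 to 35956959 per library. TOM-1 control replicate 3 stood apart, since its 22206152 counts fell on 14963 genes, where the remaining 11 libraries each covered between 19857 and 21997. Across genes its log-scale correlation with the other TOM-1 controls was 0.926 and 0.921, and every further replicate pair of the study reached at least 0.975. The drug contrasts called in TOM-1 are therefore given with and without that library. Levels are given as CPM, TMM-scaled counts relative to the library total. All 7 listed B-lineage markers passed the filter on low counts, and with ADI-PEG20 in TOM-1 1 was called higher and 1 lower (2 and 1 without that library). EBF1, a B-lineage transcription factor, rose by 0.98 on the log2 scale (edgeR adjusted p = 0.00535), and by 0.70 without that library. VPREB1, a part of the surrogate light chain, fell by 1.22 on the log2 scale (adjusted p = 0.0157), and by 0.50 without it. The part of these changes in the results on the clock genes was not tested. All TOM-1 libraries had 0 counts of HOXA9 and MEIS1, which mark leukaemia with KMT2A rearrangements, and each RS4;11 library had at least 1424 counts of either. Of 9 markers of other blood and stromal cells 3 passed the filter (LYZ, MPO and COL1A1), and 0 of these 3 were called for ADI-PEG20 in either line.

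The promoters of the 10 genes are shown first because E-boxes and D-boxes are the elements through which the clock acts on its own repressors. RefSeq windows from 250 bases before to 50 bases after the start of each gene, on GRCh38.p14, were searched on both strands for the E-box CACGTG, the E-prime box CACGTT (read as AACGTG on the other strand) and the D-box TTATGTAA (read as TTACATAA). No 6 bases can match both E motifs. Stretches around the matches are printed 5′ to 3′ on the strand of the gene, with the match in capitals.
BHLHE40, chr3:4979187-4979216, plus strand, E-box 245 bases before the start, in an annotated UTR: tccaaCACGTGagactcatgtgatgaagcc
BHLHE41, chr12:26125068-26125097, minus strand, E-box 48 bases before the start, in an annotated UTR: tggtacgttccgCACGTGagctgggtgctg
PER1, chr17:8152545-8152604, minus strand, E-box 173 bases before the start, in an annotated intron: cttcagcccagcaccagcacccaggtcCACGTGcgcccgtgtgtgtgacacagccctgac
PER2, chr2:238288775-238288834, minus strand, E-prime box 197 bases before the start, in an annotated intron: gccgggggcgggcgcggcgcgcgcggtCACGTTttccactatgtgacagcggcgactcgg
PER3, chr1:7784087-7784148, plus strand, D-box 177 bases before the start, upstream of the gene: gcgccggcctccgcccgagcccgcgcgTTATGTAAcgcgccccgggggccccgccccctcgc
CRY1, chr12:107093621-107093650, minus strand, E-prime box 89 bases before the start, in an annotated UTR: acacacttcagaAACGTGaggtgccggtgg
CRY2, chr11:45847275-45847304, plus strand, E-prime box 188 bases before the start, in an annotated intron: acacatggtaggAACGTGagggggcgggcc
NR1D1, chr17:40100740-40100769, minus strand, E-prime box 168 bases before the start, upstream of the gene: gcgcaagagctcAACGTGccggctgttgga
NR1D2, chr3:23945900-23946048, plus strand, D-box at 194 and E-boxes at 155 and 105 bases before the start, in an annotated intron: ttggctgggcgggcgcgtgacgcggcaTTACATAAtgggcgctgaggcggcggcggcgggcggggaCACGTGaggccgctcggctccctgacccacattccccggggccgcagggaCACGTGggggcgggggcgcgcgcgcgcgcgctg

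The E-box was present in the windows of 4 members and the E-prime box in those of another 4, so that 8 of the 10 had 1 or the other. Among all 35116 windows of the same length, 7.26% held the E-box, 5.34% the E-prime box and 12.2% either. Counted by gene, as the members are, 8.77% of 27305 genes had the E-box, 6.44% the E-prime box and 14.5% either. The D-box stood in the windows of 2 members, PER3 and NR1D2, against 1.13% of genes and 0.886% of windows. The DBP window held none of the 3. PER3, CRY2 and NR1D2 had more than 1 RefSeq start, and the other window of each held 0 matches. For CRY2 and NR1D2 the window without a match was the upstream one, so their matches lay only at the downstream start. A gene was counted if any of its windows held a match. These are matches of letters in 1 window per start, not sites of binding. Where the place is called UTR or intron, GENCODE release 29 has a longer transcript that starts further upstream than the RefSeq start. For the printed windows of PER2 and PER3, the bases just after the RefSeq start were not found in a GENCODE release 29 transcript of the gene.

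BHLHE40 (ENSG00000134107, chromosome 3, 4979116 to 4985323, plus strand) went from near absence to a moderate level in treated TOM-1 and stayed near absence in RS4;11. The TOM-1 control libraries had 9, 6 and 18 counts, which is 0.256, 0.234 and 0.993 CPM. The treated TOM-1 libraries had 547, 574 and 467 counts, or 23.4, 21.9 and 18.3 CPM. All 3 treated libraries lay far above all 3 controls, and the highest control was the departing replicate 3. The fitted log2 fold change was 5.53 (SE 0.67, 95% interval 4.07 to 6.98), a 46.1-fold rise, and without that replicate it was 6.40 (SE 0.48), an 84.3-fold rise. The size of the rise thus depends on the 18 counts of 1 control library, and its direction was the same in each of the 12 fits that left out 1 library (5.14 to 6.40).

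In RS4;11 the same gene had 3, 3 and 6 counts in control culture and 0, 3 and 9 counts with ADI-PEG20. The levels were 0.180 ± 0.0928 CPM (SD, n = 3) and 0.202 ± 0.235 CPM, and the groups overlapped. A count of 0 allows up to 3 counts, so most of these libraries lay at or near that limit, which covers counting error only. The log2 fold change was 0.10 with a 95% interval of -1.98 to 2.18, and a change of up to about that size was not detectable at this depth. Under ADI-PEG20 the lines differed by 6.77 on the log2 scale (SE 0.74) for BHLHE40, 21.2 ± 2.59 CPM in TOM-1 (SD, n = 3) against the RS4;11 level above. In control culture the difference between the lines was 1.34 (SE 0.82, 95% interval -0.45 to 3.13), and 0.47 without TOM-1 control replicate 3. These differences are descriptions too.

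BHLHE41 (ENSG00000123095, chromosome 12, 26120026 to 26125127, minus strand), the closest relative of BHLHE40, was lower in TOM-1 than in RS4;11. TOM-1 had 3, 6 and 0 counts in control and 0, 10 and 14 counts with ADI-PEG20. RS4;11 had 31, 28 and 22 counts in control, or 1.18 ± 0.141 CPM (SD, n = 3), and 46, 37 and 40 counts with the drug, or 1.89 ± 0.136 CPM. BHLHE41 was thus lower in TOM-1 control culture, by a log2 difference of -3.35 (SE 1.04, edgeR adjusted p = 0.0255), and -2.90 without TOM-1 control replicate 3 (adjusted p = 0.0120). That call was kept in 9 of the 12 fits with a library left out, and the largest adjusted p was 0.0657. The drug contrast of BHLHE41 did not pass the threshold in TOM-1 (1.45, SE 1.04, adjusted p = 0.327) or in RS4;11 (0.68, SE 0.89, adjusted p = 1), although the RS4;11 groups did not overlap.

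**Figure D1:**
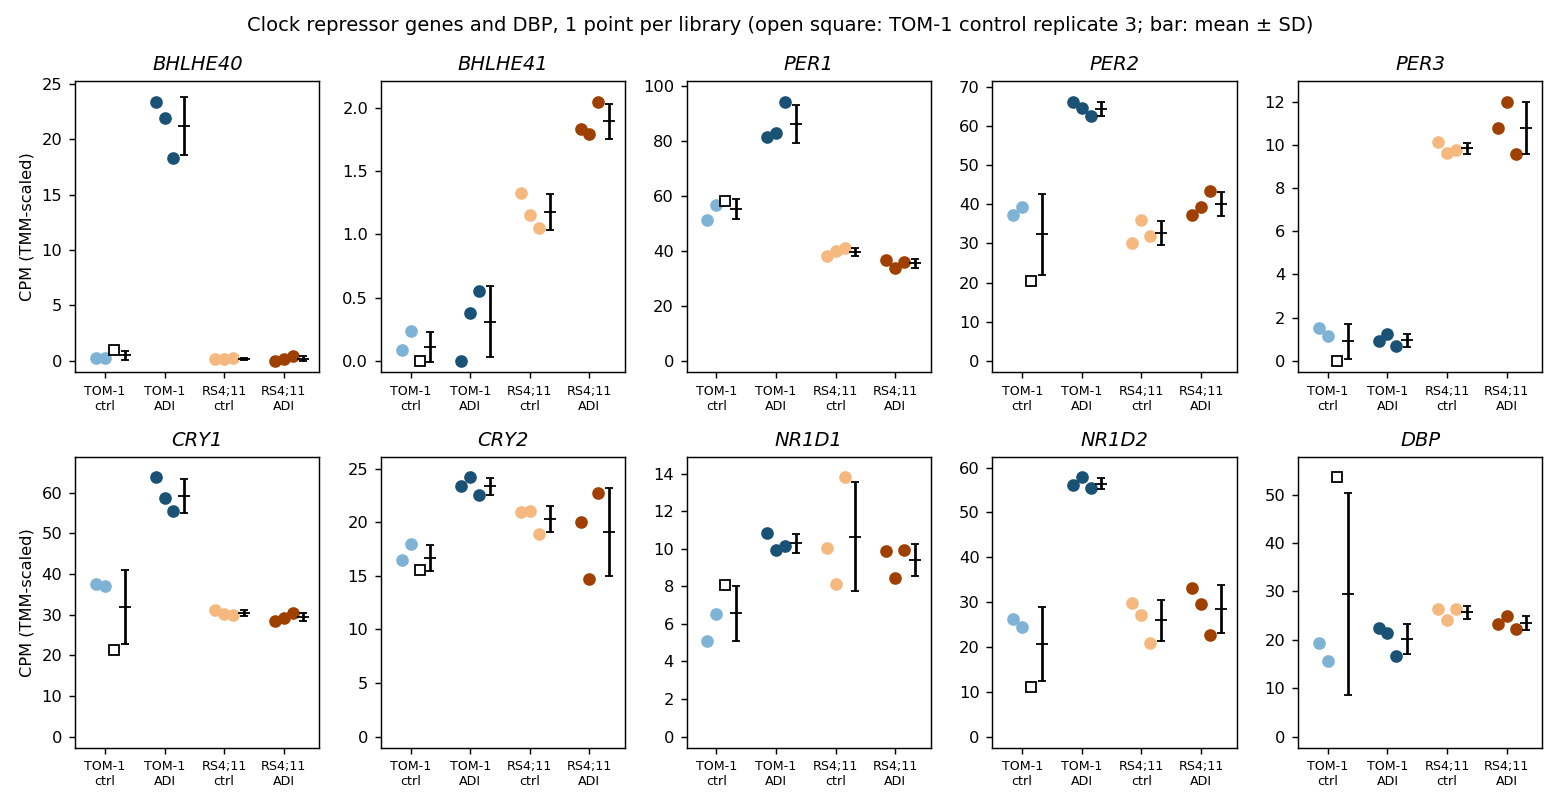
Level of each of the 10 genes in every library, in TMM-scaled CPM (vertical axes, linear, a separate scale for each gene), by line and treatment. Points are libraries, bars are mean ± SD of 3, and the open square is TOM-1 control replicate 3. BHLHE40 stands at 18.3 to 23.4 CPM in treated TOM-1 and below 1 CPM elsewhere.

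Among the period genes, PER1 and PER2 rose in TOM-1 with ADI-PEG20 and PER3 was not called. PER1 (ENSG00000179094, chromosome 17, 8140472 to 8156506, minus strand) measured 51.1, 56.6 and 58.0 CPM in the TOM-1 controls and 81.3, 82.7 and 94.1 CPM in the treated libraries. The groups were separate, and the departing control lay close to its partners. The fitted rise was 0.64 on the log2 scale (SE 0.11, edgeR adjusted p = 0.00119), and 0.67 without that control (adjusted p = 2.51e-06). In RS4;11, PER1 measured 38.0, 39.8 and 40.9 CPM in control and 36.8, 33.6 and 35.8 CPM with the drug. Every treated RS4;11 library lay below every control, but the change of -0.16 (95% interval -0.41 to 0.08) did not pass the threshold (adjusted p = 1).

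PER2 (ENSG00000132326, chromosome 2, 238244038 to 238290102, minus strand) measured 37.3, 39.2 and 20.3 CPM in the TOM-1 controls and 66.2, 64.5 and 62.6 CPM after treatment. The low control was replicate 3, at 0.532 times the mean of the other controls. The fitted rise on the log2 scale was 0.99 (SE 0.20, edgeR adjusted p = 0.00330) with it and 0.75 (SE 0.10, adjusted p = 1.94e-06) without it. In RS4;11, PER2 measured 30.2, 36.02 and 32.0 CPM in control and 37.4, 39.2 and 43.4 CPM with ADI-PEG20, so that all treated libraries lay above all controls. That change was 0.29 (95% interval -0.15 to 0.73, adjusted p = 1). All groups share 1 estimate of the spread, and a fit without TOM-1 control replicate 3 gave 0.29 with an unadjusted p of 0.00457 and an edgeR adjusted p of 0.161.

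PER3 (ENSG00000049246, chromosome 1, 7784320 to 7845177, plus strand) differed between the lines, and its drug contrast was called in neither of them. TOM-1 controls had 1.53, 1.17 and 0 CPM and treated libraries 0.941, 1.26 and 0.668 CPM, with the 0 in replicate 3. RS4;11 had 9.83 ± 0.256 CPM (SD, n = 3) in control and 10.8 ± 1.21 CPM with the drug. PER3 was lower in TOM-1 by -3.36 on the log2 scale in control culture (SE 0.64, edgeR adjusted p = 0.00135) and by -3.49 under ADI-PEG20 (SE 0.64, adjusted p = 7.87e-04). Both calls were kept in all 12 fits that left out 1 library. Its drug contrast in TOM-1 was 0.00 with all libraries and -0.51 without replicate 3 (adjusted p = 1 and 0.197). Of the exonic bases of PER3, 16.7% are shared with genes on the opposite strand, UTS2 among them, and the use of strand in counting is not given in the sources used here, so reads of these genes may not be told apart.

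CRY1 rose in TOM-1, and CRY2 rose less and with a less stable call. CRY1 (ENSG00000008405, chromosome 12, 106991364 to 107093829, minus strand), a strong repressor of the loop, measured 37.5, 36.9 and 21.4 CPM in the TOM-1 controls and 63.8, 58.7 and 55.4 CPM in the treated libraries. Replicate 3 was again the low control, at 0.575 times the mean of its partners. The log2 fold change of CRY1 was 0.89 (SE 0.18, edgeR adjusted p = 0.00331), and 0.67 without that library (adjusted p = 4.96e-06). In RS4;11, CRY1 stayed at 30.4 ± 0.745 CPM in control and 29.4 ± 1.04 CPM with the drug (SD, n = 3), a change of -0.05 with a 95% interval of -0.45 to 0.35.

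CRY2 (ENSG00000121671, chromosome 11, 45847118 to 45883248, plus strand) measured 16.5, 17.96 and 15.6 CPM in the TOM-1 controls and 23.4, 24.2 and 22.6 CPM after treatment. The groups did not overlap, and replicate 3 was close to its partners. CRY2 rose by 0.49 on the log2 scale (SE 0.16, edgeR adjusted p = 0.0369), and 0.44 without replicate 3 (adjusted p = 0.0227). Among the 12 fits with a library left out, 3 kept that call, and the largest adjusted p was 0.136. CRY2 in RS4;11 measured 20.3 ± 1.20 CPM in control and 19.1 ± 4.10 CPM with the drug (SD, n = 3), where the treated libraries ran from 14.7 to 22.7 CPM.

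NR1D2 rose more than any other called member except BHLHE40 in TOM-1, and NR1D1 rose by less with a fragile call. NR1D2 (ENSG00000174738, chromosome 3, 23945260 to 23980618, plus strand), which encodes REV-ERB beta, measured 26.2, 24.5 and 11.1 CPM in the TOM-1 controls and 56.2, 57.8 and 55.4 CPM in the treated libraries. Its log2 fold change was 1.45 (SE 0.27, edgeR adjusted p = 0.00197), or 2.73-fold. Without replicate 3, which stood at 0.439 times the mean of the other controls, it was 1.15 (SE 0.14, adjusted p = 9.23e-07), or 2.22-fold. RS4;11 had 25.9 ± 4.50 CPM in control and 28.4 ± 5.36 CPM with ADI-PEG20 (SD, n = 3), a change of 0.14 with a 95% interval of -0.45 to 0.72.

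NR1D1 (ENSG00000126368, chromosome 17, 40092787 to 40100725, minus strand), which encodes REV-ERB alpha, measured 5.08, 6.55 and 8.05 CPM in the TOM-1 controls and 10.9, 9.92 and 10.1 CPM after treatment. NR1D1 rose by 0.66 on the log2 scale (SE 0.23, edgeR adjusted p = 0.0453), and 0.83 without replicate 3 (adjusted p = 0.00368). With a library left out, 2 of 12 fits kept the call, and the largest adjusted p was 0.164. In RS4;11, NR1D1 measured 10.7 ± 2.90 CPM in control and 9.42 ± 0.841 CPM with the drug (SD, n = 3). The last exons of NR1D1 and THRA overlap on opposite strands, over 9.49% of the exonic bases of NR1D1, so that reads of the pair may not be told apart.

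DBP (ENSG00000105516, chromosome 19, 48630030 to 48637438, minus strand) was, after BHLHE40, the member most raised in the departing library. The TOM-1 controls measured 19.3, 15.6 and 53.5 CPM, and the treated libraries 22.5, 21.3 and 16.7 CPM. Replicate 3 held 3.07 times the mean of its partners. With it, the log2 fold change was -0.54 (SE 0.36, edgeR adjusted p = 0.284). Without it, the sign turned to 0.20 (SE 0.14, adjusted p = 0.280), and neither value passed the threshold. RS4;11 had 25.6 ± 1.32 CPM in control and 23.5 ± 1.41 CPM with the drug (SD, n = 3). SPHK2 overlaps 10.1% of the exonic bases of DBP on the opposite strand.

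In all, 7 of the 10 members were called higher and 0 lower in treated TOM-1, BHLHE40 among them, where 31.9% of all tested genes were called, 15.9% higher and 15.9% lower. The same counts held without TOM-1 control replicate 3, where 41.6% of 18321 genes were called, 21.8% higher and 19.8% lower. The libraries of treated and control TOM-1 did not overlap for 7 members, the same 7, where 46.2% of all genes did not overlap. Over the 12 fits that left out 1 library the members called ran from 5 to 7, and all genes called from 3960 to 7616. The calls of CRY2 and NR1D1 were kept in 3 and 2 of these fits. Since BHLHE40 was chosen from that contrast and the list was put together with earlier results known, nothing is read from these counts beyond the values of each gene. The median log2 fold change of the 10 members was 0.77, and 0.71 without replicate 3, beside 0.05 and 0.00 over all tested genes. The 7 genes called higher were all among the 8 whose promoter windows are printed above with an E-box or an E-prime box, the eighth being BHLHE41. Only PER3 and DBP had neither motif. The share called among all genes with these motifs is not given here, so this match has no background beside it and nothing is read from it. PER3 lay at low levels in TOM-1, and the sign of DBP turned with TOM-1 control replicate 3. BHLHE40 was a chosen gene, and a link between these motifs and the rise was not tested.

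**Figure D2:**
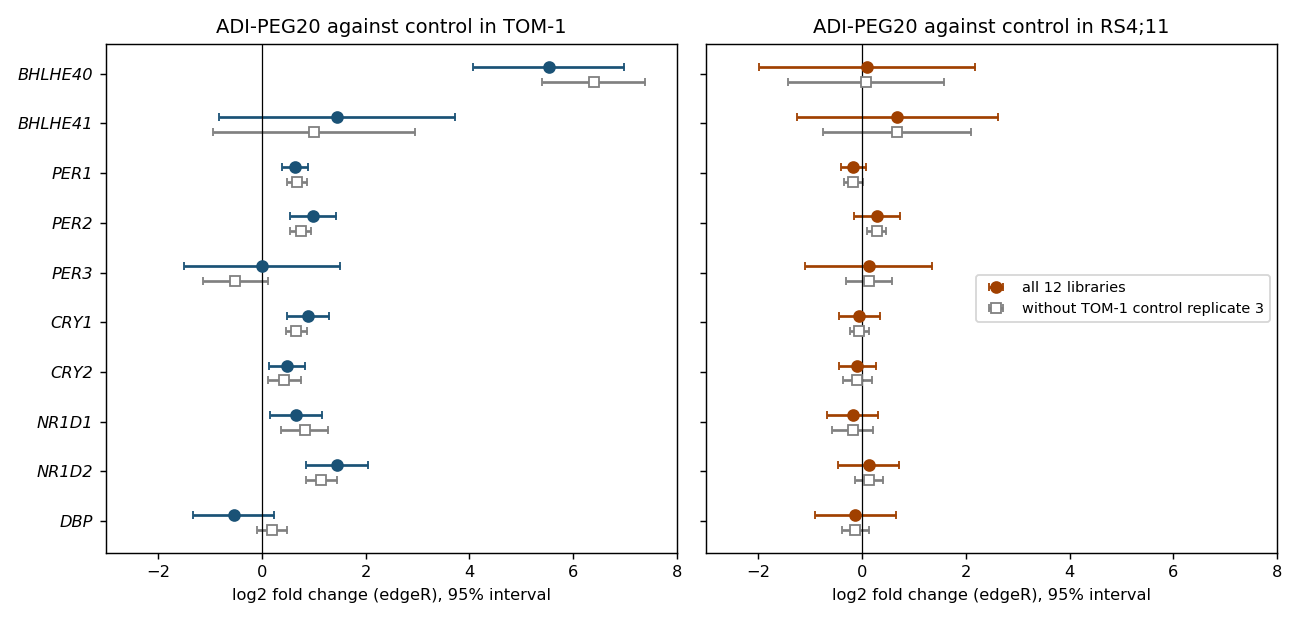
Fitted log2 fold change with 95% interval for ADI-PEG20 against control (horizontal axes) for the 10 genes in TOM-1 (left) and RS4;11 (right). Filled circles use all 12 libraries and open squares leave out TOM-1 control replicate 3. In TOM-1, DBP and PER3 change place around 0 when that library is left out, and in RS4;11 every interval from all 12 libraries includes 0.

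In RS4;11, 0 of the 10 members passed the threshold, with edgeR adjusted p = 1 for each, where 0% of all tested genes were called. At an unadjusted p under 0.05 there were 325 genes and 0 members. Without TOM-1 control replicate 3, 0.317% of genes were called, 0.202% higher and 0.115% lower, 2207 genes had an unadjusted p under 0.05, and PER2 was the member among the latter. The groups did not overlap for BHLHE41, PER1 and PER2, the first and the last of these higher and PER1 lower with the drug, where 16.8% of all tested genes did not overlap. The median log2 fold change of the 10 members was 0.02, beside 0.00 over all genes.

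The difference of the drug effect between the lines was tested directly, TOM-1 minus RS4;11. It was called for 4 of the 10 members, BHLHE40 among them, all with the higher effect in TOM-1. Over all genes 11.9% were called, 5.89% in that direction and 6.05% in the other. With a chosen gene among the members called, nothing is read from that count beyond the values of each gene. For PER1 the difference was 0.80 (SE 0.16, edgeR adjusted p = 0.00758), and all 12 fits that left out 1 library kept it. For CRY1 it was 0.94 (SE 0.26, adjusted p = 0.0354) and for NR1D2 1.31 (SE 0.38, adjusted p = 0.0446), and each of these calls was kept in 3 of the 12 fits (largest adjusted p = 0.109 and 0.124). For BHLHE40, chosen from the TOM-1 contrast, the difference was 5.43 (SE 1.21), and it is a description.

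Without TOM-1 control replicate 3 the difference was called for 6 members, the chosen BHLHE40 among them. Over all genes 30.4% were called, 15.7% with the higher effect in TOM-1 and 14.7% with the lower. The difference was then 0.84 for PER1, 0.72 for CRY1 and 1.01 for NR1D2. Added to these were PER2, at 0.46 (SE 0.13, edgeR adjusted p = 0.0103), and NR1D1, at 1.00 (SE 0.29, adjusted p = 0.0104). With all libraries these were 0.70 (adjusted p = 0.134) and 0.83 (adjusted p = 0.115). CRY2 passed in neither fit, at 0.57 (adjusted p = 0.124) and 0.53 (adjusted p = 0.0536). For BHLHE41, PER3 and DBP the difference did not pass the threshold in either fit, and their 95% intervals with all libraries were wide: -2.12 to 3.66, -2.00 to 1.74 and -1.51 to 0.69. The contrasts share libraries, so the difference is no independent evidence beside the TOM-1 values.

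The lines were also compared in control culture, where 4 of the 10 members were called, 1 higher and 3 lower in TOM-1, beside 34.7% of all genes, 16.2% higher and 18.4% lower. The libraries of the lines did not overlap for 5 members (the same 4 and CRY2), and for 42.7% of all genes. PER1 was higher in TOM-1, by 0.48 (SE 0.11, edgeR adjusted p = 0.00521), and 0.44 without TOM-1 control replicate 3. BHLHE41 and PER3 were lower, with the values above, and so was NR1D1, by -0.70 (SE 0.23, adjusted p = 0.0318). The NR1D1 call was kept in 7 of the 12 fits with a library left out (largest adjusted p = 0.118), and was lost with upper-quartile scaling, no filter or 6 libraries (adjusted p = 0.0504, 0.0639 and 0.163). Leaving out TOM-1 control replicate 3, 6 members were called, 2 higher and 4 lower, where 52.8% of all genes were, 25.4% higher and 27.5% lower. CRY1 was then higher in TOM-1, by 0.29 (adjusted p = 0.0141). PER3 stood at -2.85 and NR1D1 at -0.88. DBP was then lower, by -0.55 (adjusted p = 0.00229), where it had been at 0.19 (adjusted p = 0.724) with that library.

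Under ADI-PEG20, 7 of the 10 members differed between the lines, 5 higher and 2 lower in TOM-1, where 47.2% of all genes were called, 23.1% higher and 24% lower. The libraries did not overlap for the same 7 members, and for 70.6% of all genes. PER1 was higher in TOM-1 by 1.28 (SE 0.11, edgeR adjusted p = 2.13e-06), CRY1 by 1.01 (SE 0.18, adjusted p = 7.08e-04), NR1D2 by 0.99 (SE 0.27, adjusted p = 0.00977) and PER2 by 0.69 (SE 0.20, adjusted p = 0.0148). BHLHE40, chosen from the TOM-1 contrast, made up the 5, and its value is a description. The PER2 call was kept in 8 of the 12 fits with a library left out and that of NR1D2 in 11 (largest adjusted p = 0.0773 and 0.0697). BHLHE41 was lower in TOM-1 by -2.58 (SE 0.96, adjusted p = 0.0432), a call kept in 4 of these fits (largest adjusted p = 0.0888). CRY2 (0.29), NR1D1 (0.13) and DBP (-0.22) did not pass the threshold. The NR1D1 libraries of TOM-1, lower than those of RS4;11 in control culture, thus reached a level under the drug that was not distinguished from that of RS4;11, with a 95% interval of -0.36 to 0.62 for the difference. The counts without TOM-1 control replicate 3 were again 5 higher and 2 lower, beside 62.9% of all genes, 31.4% higher and 31.5% lower.

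Levels between genes were compared per length, as CPM per 1000 exonic bases. In TOM-1 control culture PER1 stood first, at 7.89 ± 0.524 (SD, n = 3), before CRY1 at 6.31 ± 1.81 and PER2 at 4.69 ± 1.51, and the libraries of each of these overlapped with the next in the order. BHLHE40 (0.129 ± 0.113), PER3 (0.111 ± 0.0989) and BHLHE41 (0.0269 ± 0.0300) formed the bottom of the order, each overlapping with the next, with a gap to NR1D1 above them (2.37 ± 0.536). Without replicate 3 the means on that scale were 7.69 for PER1, 7.35 for CRY1 and 5.56 for PER2, and PER3 (0.167) stood above BHLHE40 (0.0638) and BHLHE41 (0.0404). With ADI-PEG20, BHLHE40 took place 5 of the 10 in TOM-1, at 5.53 ± 0.676, below PER2 at 9.36 ± 0.261 and above CRY2 at 3.77 ± 0.128, with no overlap on either side.

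In RS4;11 control culture CRY1 stood first, at 6.01 ± 0.147 CPM per 1000 exonic bases (SD, n = 3), followed without overlap by PER1 at 5.65 ± 0.203. The libraries of PER2, NR1D2, DBP, NR1D1 and CRY2, from 4.76 down to 3.28 on that scale, each overlapped with the next. PER3 at 1.21 ± 0.0316, BHLHE41 at 0.298 ± 0.0357 and BHLHE40 at 0.0468 ± 0.0242 followed, each apart from the one before. With ADI-PEG20 these 3 kept the last places in the same order in RS4;11, at 1.33, 0.479 and 0.0527. The DEC genes thus took opposite places in the lines, in control as in treated cultures. The mean of BHLHE40 was the higher of the pair in TOM-1 and that of BHLHE41 in RS4;11. In TOM-1 control culture both lay at few counts, at 0.129 and 0.0269 on that scale. BHLHE40 was chosen for its rise in treated TOM-1, so its place there is a description.

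Of 10 activators and loop partners of the clock 9 were tested, and 1 was called higher and 2 lower in TOM-1 (1 and 3 without TOM-1 control replicate 3). These counts are close to the shares over all genes, 15.9% in each direction (21.8% higher and 19.8% lower without that library), and nothing particular to the list is read from them. The Wald test of DESeq2 called 5 of them. BMAL1, the partner of CLOCK, measured 13.8, 15.4 and 11.1 CPM in control and 22.0, 20.9 and 26.99 CPM with the drug, all treated libraries above all controls. BMAL1 rose by 0.79 on the log2 scale (SE 0.18, edgeR adjusted p = 0.00541), and 0.67 without TOM-1 control replicate 3. CLOCK was at 0.58 (adjusted p = 0.212) and 0.20 without that library, where it had 9.93 CPM against 29.7 and 34.9 CPM in the other controls.

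TIMELESS, which in mammals serves mainly at the replication fork, measured 162.4, 177.9 and 138.1 CPM in control and 71.8, 73.1 and 67.4 CPM after treatment. It thus fell by 1.17 on the log2 scale (SE 0.12, edgeR adjusted p = 3.76e-05), and by 1.27 if replicate 3 is left out. NPAS2, a paralog of CLOCK, fell from 11, 15 and 25 counts to 3, 1 and 5 counts. Its log2 fold change was -2.53 (SE 0.60, adjusted p = 0.00711), and -1.82 without replicate 3 (adjusted p = 0.00730). RORA (0.17) and CIART (-0.60) were not called, and the sign of RORA turned to -0.39 without replicate 3. In RS4;11, 0 of the 9 were called.

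Of the 3 D-box factors besides DBP 2 were tested. TEF, an activator of the same PAR bZIP family as DBP, rose from 4.91, 4.64 and 7.33 CPM to 15.1, 15.1 and 14.5 CPM in TOM-1. That is 1.42 on the log2 scale (SE 0.18, edgeR adjusted p = 1.88e-04), or 1.64 with TOM-1 control replicate 3 left out. In RS4;11, TEF stood at 12.8 to 15.01 CPM in both conditions, so the treated TOM-1 libraries fell within or next to that range. NFIL3, the repressor that competes at D-boxes, was at 0.77 (SE 0.31, adjusted p = 0.0787), and at 1.13 without replicate 3 (adjusted p = 0.00140). HLF had at most 1 count in any library and was not tested.

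Among 15 kinases, ligases and proteases that modify clock proteins 14 were tested, and 2 rose and 0 fell in TOM-1, beside 15.9% of all genes in each direction. The number called was 0 in a fit of the 6 TOM-1 libraries alone, 1 with upper-quartile scaling and 4 with no filter. DYRK1A, a kinase that acts on CRY2, measured 95.5, 95.1 and 42.5 CPM in control and 172.1, 177.8 and 152.5 CPM after treatment, with the low control in replicate 3. The rise was 1.11 on the log2 scale (SE 0.24, edgeR adjusted p = 0.00450), or 0.81 with replicate 3 left out, and with the 6 TOM-1 libraries alone it was not called (adjusted p = 0.0541). SIAH2, a ligase for REV-ERB proteins, was higher by 0.46 (SE 0.13, adjusted p = 0.0169). Its log2 fold change was 0.58 without replicate 3. The SIAH2 call was kept in 8 of the 12 fits that left out 1 library, and was lost with upper-quartile scaling, no filter or the 6 libraries (adjusted p = 0.0650, 0.0607 and 0.141). In the fit without replicate 3, 4 of the 14 were called higher and 1 lower, beside 21.8% and 19.8% of all genes. The casein kinases CSNK1D (-0.04) and CSNK1E (-0.35), which act on PER proteins, were not called with all libraries.

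Other bHLH factors were listed because they share E-boxes or partners with the DEC factors, and of 15 only 9 were tested, with 1 called higher and 2 lower in TOM-1, and 2 and 3 without TOM-1 control replicate 3. Over all genes 31.9% were called, and 41.6% without that library. The number called in this list was 5 with the Wald test of DESeq2 and 1 with the 6 TOM-1 libraries alone. ID3, which binds and inactivates class E bHLH proteins, fell from 303.98, 331.3 and 674.5 CPM to 89.7, 95.3 and 90.4 CPM, with the highest control in replicate 3. Its log2 fold change was -2.25 (SE 0.25, edgeR adjusted p = 7.15e-05), and -1.79 without that library. ID2 went from 1.11, 1.79 and 1.05 CPM to 2.87, 2.59 and 2.87 CPM (1.07, SE 0.32, adjusted p = 0.0229). Its log2 fold change was 0.94 without replicate 3 (adjusted p = 0.0498). The ID2 call was kept in 8 of the 12 fits with a library left out, and was lost with no filter or with 6 libraries (adjusted p = 0.137 and 0.120). USF1, an E-box activator, fell by 0.88 on the log2 scale (SE 0.22, adjusted p = 0.00969), and by 0.52 without replicate 3, and was not called with 6 libraries (adjusted p = 0.0769).

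BHLHE40 is a known hypoxia-inducible gene, so other genes induced by hypoxia were listed beside it. Of 18 such genes 16 were tested, and 4 were called higher and 3 lower in TOM-1, and 4 and 6 without TOM-1 control replicate 3, where 31.9% and 41.6% of all genes were called. VEGFA, the angiogenic factor, rose by 1.49 (SE 0.17, edgeR adjusted p = 9.94e-05), KDM3A, a histone demethylase, by 1.37 (SE 0.27, adjusted p = 0.00230) and MXI1, a MAX partner, by 0.85 (SE 0.19, adjusted p = 0.00606). PFKFB4, a regulator of glycolysis, fell by 1.65 on the log2 scale (SE 0.34, adjusted p = 0.00326). Without replicate 3 the log2 fold changes were 1.31 for VEGFA, 1.05 for KDM3A, 0.73 for MXI1 and -1.46 for PFKFB4. The median over the 16 was -0.09, and -0.19 without replicate 3, beside 0.05 and 0.00 over all genes.

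**Figure D3:**
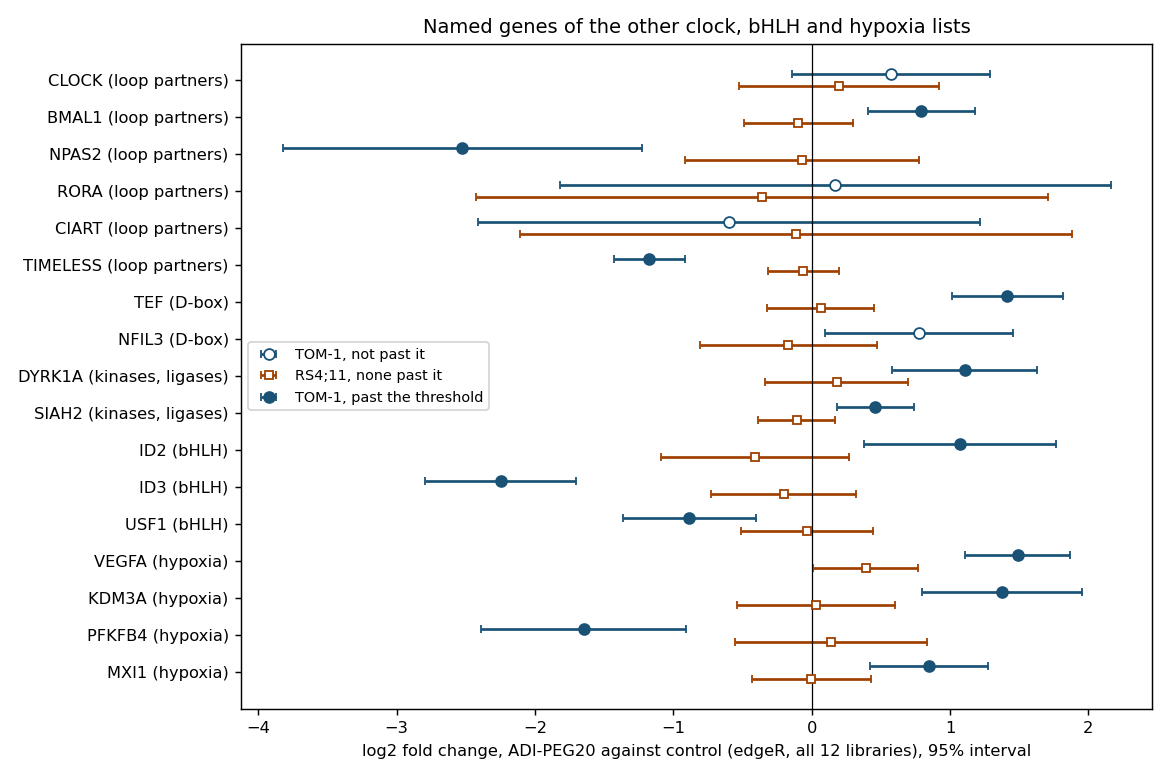
Fitted log2 fold change with 95% interval for ADI-PEG20 against control, all 12 libraries, of the named genes from the other clock, bHLH and hypoxia lists (list in brackets). Filled circles passed the threshold in TOM-1, open circles did not, and the open squares of RS4;11 did not. TIMELESS, NPAS2, ID3, USF1 and PFKFB4 lie below 0 in TOM-1, whereas BMAL1, TEF, DYRK1A and VEGFA lie above it.

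The 6 genes whose profile over the 12 libraries lay nearest to that of BHLHE40 were found by the root mean square distance of log2 CPM, each gene centred on its own mean. They were DHRS2 (distance 0.854), TRIB3 (0.927), PLA2G4C (0.977), JUN (1.07), BEST1 (1.09) and CHL1 (1.12), where the median over 15191 genes was 2.83. DHRS2, a short-chain dehydrogenase, went from 2.00 to 61.5 mean CPM in TOM-1 and stood at 0.731 and 1.03 mean CPM in RS4;11. TRIB3, a pseudokinase of the amino acid response, went from 60.4 to 885.3 mean CPM in TOM-1, so it shared the shape at a much higher level. JUN, an AP-1 subunit, went from 4.03 to 89.2 mean CPM in TOM-1, and 0 of the other 9 clock members were among the 6. The 6 without TOM-1 control replicate 3 were DHRS2, SLC16A6, DMGDH, CHL1, TRIB3 and JUN, so 4 were shared. Likeness was measured over libraries that include the drug contrast, and it describes these libraries only.

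**Figure D4:**
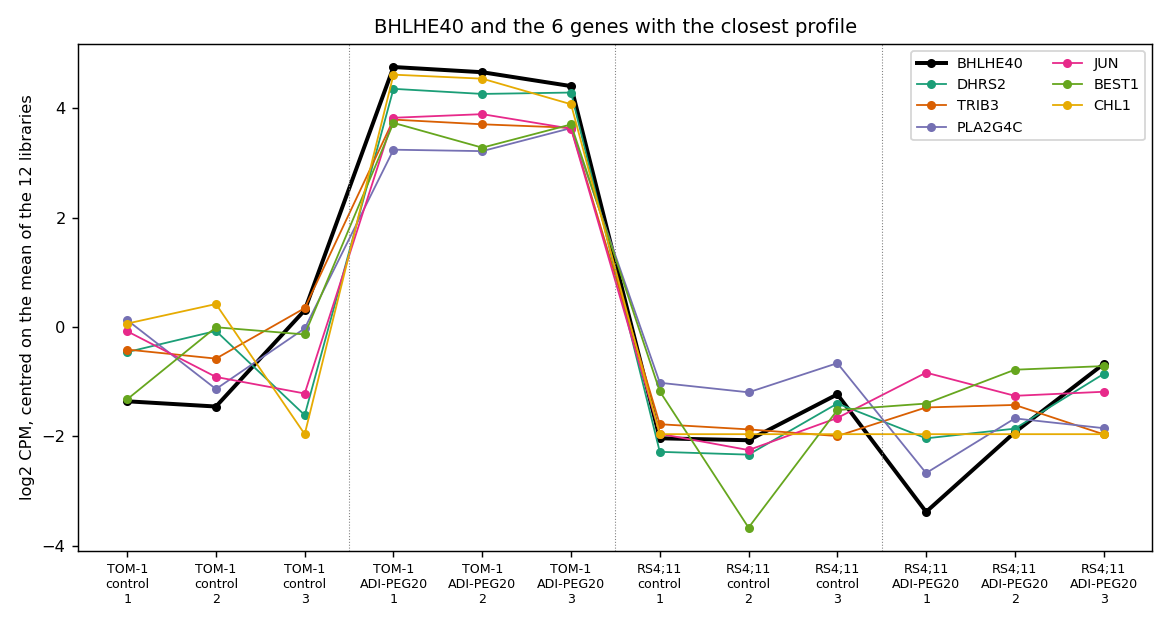
Log2 CPM centred on the mean of the 12 libraries (vertical axis) of BHLHE40 and its 6 nearest genes in each library (horizontal axis, grouped by line and treatment). Lines join the libraries of a gene to guide the eye. All 7 genes stand high in the 3 treated TOM-1 libraries. Among the TOM-1 controls, replicate 3 is the highest for BHLHE40 and TRIB3 and the lowest for CHL1, DHRS2 and JUN.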

How the data were processed

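A single table of raw read counts per Ensembl gene, as deposited by the authors and not normalized, was used. The submitters' processing notes name STAR, SAMtools, featureCounts and hg38; versions, annotation release, use of strand and treatment of multiply mapped reads are not given in the sources used here. Per the labels, total RNA was column-purified and poly(A) tails were captured. Of 60664 identifiers 60463 matched a symbol and 58396 matched GENCODE release 29, which gave positions, exonic lengths and overlaps.

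Counts were fitted in R 4.3.3 with edgeR 4.0.16 (filterByExpr, TMM, glmQLFit and glmQLFTest on group means over all 12 libraries, Benjamini-Hochberg adjustment over all tested genes, threshold 0.05). Called means past that threshold. CPM are TMM-scaled, SE is the log2 fold change divided by the square root of F, and intervals are 95%. The fit was tested on simulated data. Alternatives used DESeq2 1.42.0, other scalings and filters, a replicate block, 6 libraries and each library left out. The members and lists were chosen with earlier results of these data known. Besides the genes named whatever their value, each list names up to 4 genes with the largest change in TOM-1 past the threshold, at 1 CPM or more in a group. Of the listed genes, 2 are not reported here. Likeness used log2 CPM with a prior count of 2. Promoter windows came from RefSeq. Figures were drawn with matplotlib 3.10.9.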

Additional observations from a re-analysis of the deposited data

Results flagged for a closer look

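The difference of the ADI-PEG20 effect between the lines, TOM-1 minus RS4;11, passed the threshold of the interaction test in edgeR for several named genes. On the log2 scale it was 5.43 for BHLHE40 (a description, since the gene was chosen from the TOM-1 contrast), 0.80 for PER1, 0.94 for CRY1 and 1.31 for NR1D2. Without TOM-1 control replicate 3 these were 6.32, 0.84, 0.72 and 1.01. Among the partners the difference was -1.11 for TIMELESS, 0.89 for BMAL1, -2.45 for NPAS2 and 1.35 for TEF (-1.21, 0.77, -1.74 and 1.57 without that library). Among the bHLH and hypoxia genes it was -2.05 for ID3, -1.79 for PFKFB4, 1.10 for VEGFA and 1.34 for KDM3A (-1.59, -1.59, 0.93 and 1.02 without it). NPAS2 had the largest adjusted p among the 12 (0.0453). Over all tested genes 11.9% were called for the difference. TIMELESS, ID3, PFKFB4, VEGFA and KDM3A were named for a large change in TOM-1, which is part of the difference. For them too the difference is a description. TOM-1 control replicate 3 enters each of these differences, and its part in them beyond the values without it was not tested.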

How the results depend on the processing

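The fit on the 6 libraries of a contrast called 2639 genes in TOM-1 (5527 with all 12), 3 in RS4;11 (0) and 3548 between the control cultures (6014), and the Wald test of DESeq2 called 3228 for the difference between the lines (2072). With each of the 12 libraries left out in turn, the genes called ran from 3960 to 7616 in TOM-1, 0 to 58 in RS4;11, 1169 to 5567 for the difference, 4731 to 9681 between control cultures and 6838 to 11531 under ADI-PEG20. The members called ran from 5 to 7, 0 to 0, 1 to 6, 2 to 6 and 5 to 7 in that order. Signs turned for PER3 in TOM-1 (-0.0215 with DESeq2 size factors, -0.0454 with upper-quartile scaling, -5.71e-05 with a mean of at least 10 counts), and for PER2 between control cultures (0.00801 with 6 libraries). With 1 library left out, ranges that crossed 0 were -0.51 to 0.56 for PER3, -0.88 to 0.20 for DBP and -0.39 to 0.78 for RORA in TOM-1, -1.34 to 0.76 for BHLHE40, -0.23 to 0.0713 for CRY2 and -0.34 to 0.0554 for NR1D1 in RS4;11, -0.64 to 0.43 for PER3 and -0.75 to 0.33 for DBP in the difference, -0.21 to 0.22 for PER2, -0.10 to 0.29 for CRY1 and -0.55 to 0.46 for DBP between control cultures, and -0.0173 to 0.16 for NR1D1 under the drug. Same-numbered libraries deviated together with weak correlations, from -0.06 to 0.14. Between the treated libraries of the lines the best match was the same number each time, and between control and treated TOM-1 it never was. Whether the numbers mark a shared batch was not tested beyond a fit with a replicate block. With the replicate block PER3 turned to 0.0187 in the difference, and the CRY2 call in TOM-1 (0.49, adjusted p = 0.0575) and the BHLHE41 call under the drug (-2.74, adjusted p = 0.0634) were lost. The CRY2 call in TOM-1 was also lost with upper-quartile scaling, no filter or 6 libraries, and the NR1D1 call with these, with DESeq2 size factors and with its Wald test (adjusted p from 0.0526 to 0.120). Calls of NR1D1 between control cultures and of SIAH2, DYRK1A, ID2 and USF1 in TOM-1 were lost in the settings given beside them. The cause of these changes was not tested. With a library left out of 3, a group of 2 shares its spread with the other groups. BHLHE40 in RS4;11 and BHLHE41 in TOM-1, at few counts, are limited by depth.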
